A study of Mus musculus with 2 samples.

Results

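Indirect-pathway-like striatal neurons of 2 coronal sections of embryonic mouse brain were chosen by their transcript counts. A cell was a member if it held at least 20 transcripts of the gene panel, at least 2 of *Drd2* and *Adora2a* together, at least 1 of *Gad1* and *Gad2* together, and none of the connective-tissue genes *Dcn* and *Col14a1*. In addition, *Drd2*, *Adora2a* and *Penk* together had to be at least as many as *Rxrg*, *Tac1* and *Chrm4* together, the genes that the rule sets on the side of the direct pathway. By this rule 3623 of 156481 cells with at least 20 transcripts were members, 456 of 55231 in the control section and 3167 of 101250 in the knockout (KO) section. The same cells were set beside 8731 direct-pathway-like cells, 1214 of the control and 7517 of the KO section, which met the same *Gad1*, *Gad2*, *Dcn* and *Col14a1* criteria, held at least 2 transcripts of *Rxrg*, *Tac1* and *Chrm4* together, and held more of these than of *Drd2*, *Adora2a* and *Penk*.

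The striatum is built mainly of inhibitory projection neurons of 2 kinds. Those of the indirect pathway carry the dopamine receptor Drd2 and the adenosine receptor Adora2a, make the opioid precursor Penk, and send their axons to the globus pallidus, and their activity is known to restrain movement. Those of the direct pathway carry the receptors Drd1 and Chrm4, make the peptide precursors Tac1 and Pdyn, and project to the output nuclei of the basal ganglia. Both kinds are born in the lateral ganglionic eminence, a germinal zone beside the lateral ventricle, and move from there into the striatum before birth. The transcription factor Sp9 is known to be needed for the indirect kind, and Isl1 and Ebf1 are known for their part in the direct kind.

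The study compared embryos at day E16.5 of gestation in which *Dnmt1*, the maintenance DNA methyltransferase, was deleted through *Sst-Cre* with embryos that kept *Dnmt1*. The control section came from an *Sst-Cre/tdTomato* embryo and the KO section from an *Sst-Cre/tdTomato/Dnmt1 loxP2* embryo, so that both carried the Cre driver at the *Sst* locus (heterozygous in the labels) and the tdTomato reporter. Cre is expected to act in cells that express *Sst* or descend from such cells, which striatal projection neurons as a class are not known to do. Frozen heads were cut at 10 µm and 500 genes were read by MERFISH, in which probes mark individual RNA molecules in place and rounds of imaging spell out a code for each gene.

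With 1 section per group there was no replicate of either genotype and no test between them, and genotype, embryo, plane of section, imaging run and depth cannot be told apart. All intervals are 95% intervals for counting error only, exact Poisson for sums of transcripts and exact binomial for shares of cells. The control section held 2842355 panel transcripts in 108533 segmented cells and the KO section 13437174 in 110004 cells, with medians of 20 and 101 per cell. Members held a median of 44 (range 20 to 145) in the control section against 138 (range 20 to 1204) in the KO section. Barcodes that code for no gene made up 0.503% and 0.473% of the decoded molecules of members, and the sections shared 0 cell identifiers. Levels are given as counts scaled to 1000000 panel transcripts of the cells named (CPM), and they compare cells for 1 gene, not genes with each other, since probe number and transcript length differ among genes.

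The rule left many cells close to its limits, above all in the shallow section. *Drd2* and *Adora2a* together were at exactly 2 in 236 of the 456 control members (51.8%) and in 1160 of the 3167 KO members (36.6%). Just outside, 824 control cells and 3421 KO cells met every other criterion with 1 such transcript. At the other end, 62 control members (13.6%) and 995 KO members (31.4%) held at least 5, with maxima of 11 and 30. The sum over the 3 indirect-pathway genes equalled the direct-pathway sum in 45 control and 248 KO members, and 31 and 200 cells fell 1 transcript short. A further 12 control and 220 KO cells were left out by *Dcn* or *Col14a1* alone, and 358 and 646 by the lack of *Gad1* and *Gad2*.

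As deposited, the share of members was 0.826% (0.752 to 0.905) in the control section and 3.13% (3.02 to 3.24) in the other, a difference of 1.92 on the log2 scale. Most of that difference was gone at matched depth. When the KO transcripts were thinned at random to the control depth, which kept 21.2% of them, 523 of 59772 KO cells met the rule, or 0.875% (0.802 to 0.953), a log2 difference of 0.08 to the control section. With every cell of both sections thinned to 25 transcripts, the shares were 0.397% (0.340 to 0.460) and 0.445% (0.405 to 0.488). The number of direct-pathway-like cells per member was 2.66 in control and 2.37 in KO tissue as deposited, 3.42 in the KO section at the control depth, and 2.54 and 2.49 with all cells at 25 transcripts. The hemispheres of the control section, told apart by the nearer centre of the direct-pathway-like cells, were uneven, with 109 and 347 members, and so was their depth, at medians of 17 and 24 transcripts per cell. The KO hemispheres held 1474 and 1693 members at medians of 95 and 107.

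**Figure D1:**
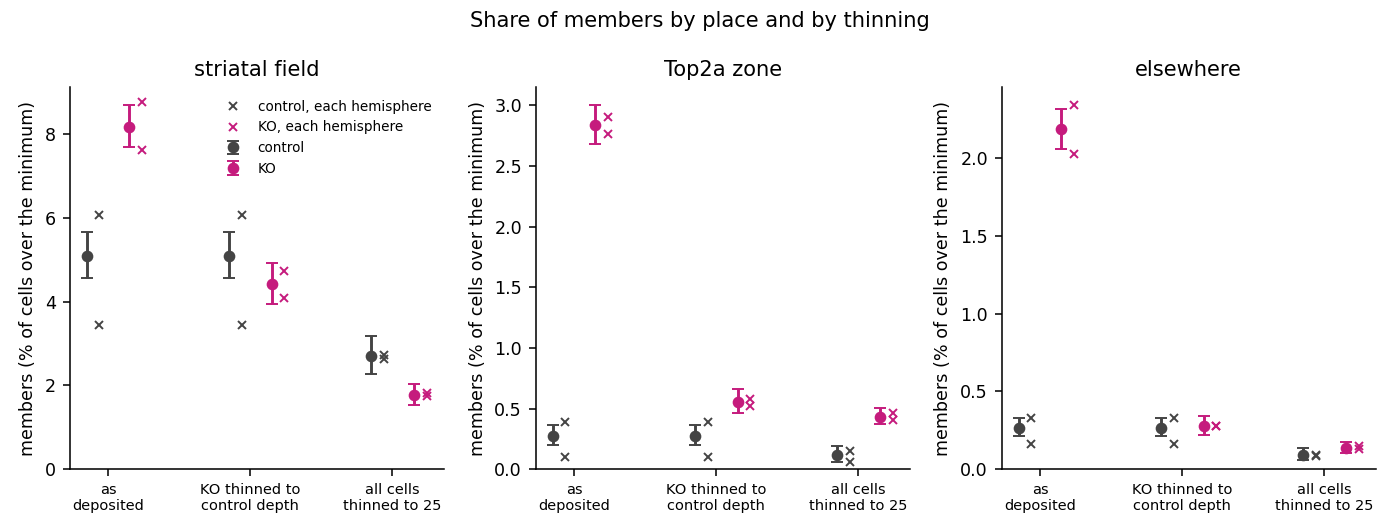
Members as a percentage of the cells over the minimum of transcripts (y axis) in the striatal field, the *Top2a* zone and elsewhere, for the control and KO sections as deposited, with KO transcripts thinned to the control depth, and with every cell thinned to 25 transcripts. Circles are sections with exact 95% binomial intervals and crosses are single hemispheres. In the striatal field the KO share passes from above the control share (8.17% against 5.09%) to below it once depth is matched (4.41%), with intervals that overlap and both KO hemispheres between the control hemispheres, and lies below it with intervals and hemispheres apart at 25 transcripts (1.78% against 2.70%), while in the *Top2a* zone it stays above (0.557% against 0.273%).

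Members were chosen by their counts of these genes, whose values are given here without a test. *Drd2* lies on chr9:49251654-49319477 of GRCm39 on the plus strand, *Adora2a* on chr10:75152560-75170628 on the plus strand, and *Penk* on chr4:4132722-4141856 on the minus strand. *Drd2* averaged 1.75 transcripts per member in control and 3.04 in KO tissue and was present in 87.7% and 89.2% of members. *Adora2a* averaged 1.25 and 1.34 and was present in 68.2% and 60.0%. The rule did not gather all molecules of these receptors. Members held 21.8% of the *Drd2* transcripts counted in control cells and 44.5% of those in KO cells, direct-pathway-like cells 6.47% and 28.2%, and the rest lay in cells that met neither rule. For *Adora2a* members held 19.3% and 35.1%.

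*Penk*, the third gene of the class, was scarce in members and was not required by the rule. At least 1 *Penk* transcript was found in 8.77% of control members (6.34 to 11.8) and 15.3% of KO members (14.1 to 16.6), against 2.14% and 7.10% of direct-pathway-like cells. Members held only 2.94% of all *Penk* transcripts in control cells and 8.16% of those in KO cells, so most *Penk* RNA of both sections lay outside the class. In CPM, *Penk* stood at 2147 in control members and 1680 in KO members, and at 467 and 521 in direct-pathway-like cells. *Rxrg*, a retinoid receptor gene on the direct side of the rule, was nevertheless present in 49.3% of control and 45.3% of KO members, and in 63.4% and 85.4% of members of the striatal field defined below. The comparison class rested almost wholly on it, with *Rxrg* in 98.9% of control and 98.2% of KO direct-pathway-like cells, *Tac1* in 5.35% and 21.8% and *Chrm4* in 26.1% and 25.3%. *Drd2* was found in 16.6% and 35.4% of direct-pathway-like cells, so that the classes are separated by a balance of counts and not by presence.

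Members carried *Drd2* and *Adora2a* in different mixes, and one of these mixes went against the label. In the control section 255 members (55.9%) held both receptors, 145 (31.8%) only *Drd2* and 56 (12.3%) only *Adora2a*. In the KO section the counts were 1557 (49.2%), 1268 (40.0%) and 342 (10.8%). Among the 342 KO members with *Adora2a* alone, 55.0% (49.5 to 60.3) held *Cldn5*, a tight-junction gene of brain endothelium, against 8.16% of KO members with both receptors, 4.50% of those with *Drd2* alone, 4.96% of direct-pathway-like cells and 9.04% of all other cells. The 8 vascular genes of the marker list summed to 76266 CPM in these cells and to 2348 in KO members with *Drd2* alone, and the KO group also stood at 5863 CPM for the endothelial receptor gene *Flt1*, 4607 for the pericyte gene *Pdgfrb* and 14859 for *Tbr1*, a transcription factor of cortical glutamatergic neurons. The striatal transcription factor gene *Meis2* stood at 52271 CPM in them, against 136863 in KO members with both receptors. In the control section *Cldn5* was present in 3 of the 56 cells with *Adora2a* alone (5.36%, 1.12 to 14.9) and their vascular sum was 12432 CPM. Members of the KO section with *Adora2a* and no *Drd2* thus included many cells with vascular transcripts, and such members are called here only by their receptors. The part of neighbouring vessels, segmentation or free RNA in this was not tested.

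Members lay in 3 kinds of place. These were set by the transcripts of the 100 nearest cells around each cell, with limits chosen after the sections had been seen. The striatal field was where *Drd1*, *Gpr149*, *Oprm1* and *Pdyn*, genes that were higher in direct-pathway-like cells than in members, together made up at least 0.75% of the neighbours' transcripts. The *Top2a* zone was the remaining tissue where *Top2a*, a topoisomerase gene of dividing cells, reached 1%. Of the control members 325 (71.3%) lay in the field, 45 (9.87%) in the *Top2a* zone and 86 (18.9%) elsewhere. Of the KO members 932 (29.4%) lay in the field, 1183 (37.4%) in the *Top2a* zone and 1052 (33.2%) elsewhere. Direct-pathway-like cells were mostly in the field, 1109 of 1214 in control and 6017 of 7517 in KO tissue, and 2 and 210 of them lay in the *Top2a* zone. Moving the limit for the field between 0.5% and 1%, or that for *Top2a* to 2%, gave 62.9% to 75.9% of control members and 21.0% to 42.2% of KO members in the field, and 5.26% to 9.87% and 23.0% to 37.4% in the *Top2a* zone.

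**Figure D2:**
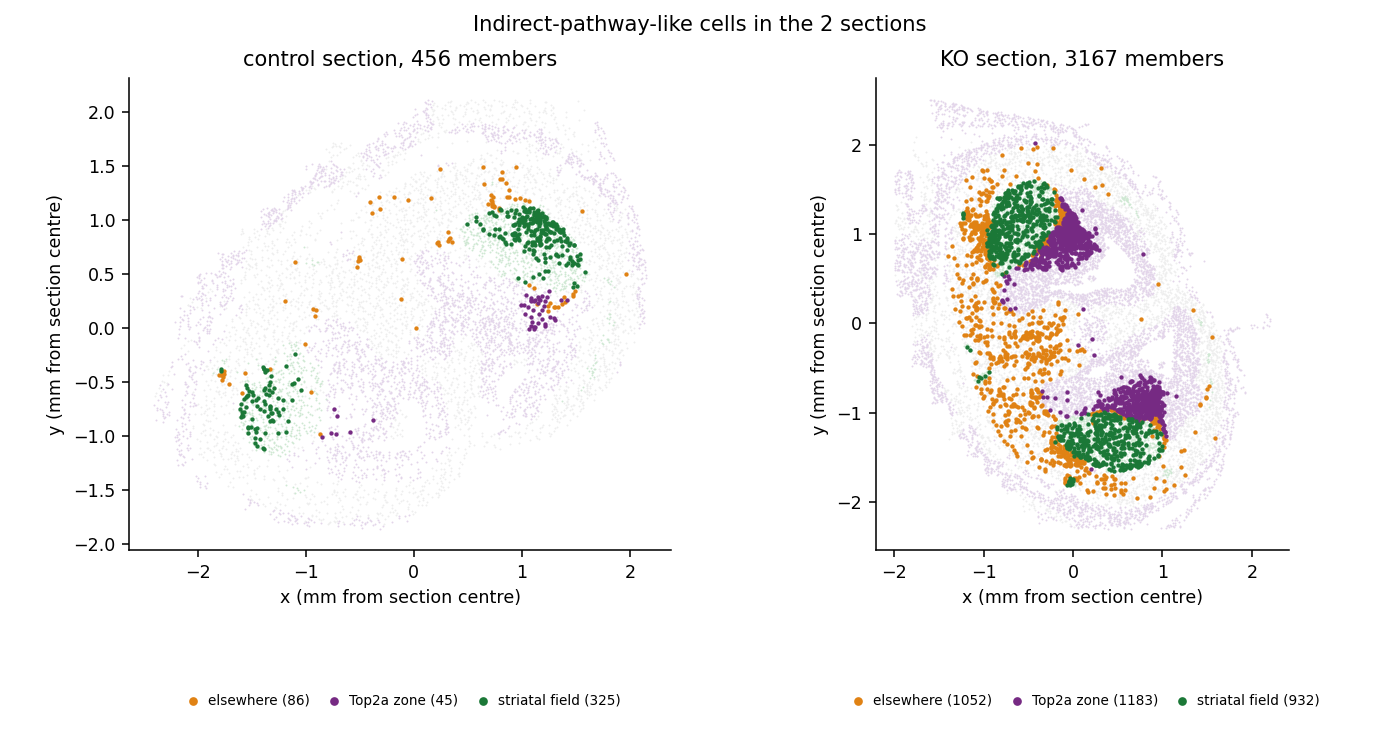
Positions of members in the control section (456 members) and the KO section (3167 members), in mm from the centre of each section, over the outline of all cells. Colours mark members of the striatal field, of the *Top2a* zone and elsewhere. In the KO section the 1183 members of the *Top2a* zone lie mostly in bands beside the striatal fields, and the control section has 45 such members. Part of the 1052 KO members elsewhere border the fields directly, and others lie between the hemispheres and along the outer side of the section.

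The *Top2a* zone was the place where the KO share stayed above that of the control at both matched depths with intervals that did not overlap. Members were 0.273% of its cells in the control (0.199 to 0.365) and 2.84% in the KO section (2.68 to 3.0). With the KO section at the control depth the share was 0.557% (0.463 to 0.664), and with all cells at 25 transcripts it was 0.115% (0.0630 to 0.193) against 0.434% (0.372 to 0.502). The control hemispheres differed from each other, with 7 members of the zone (0.103%) in the shallower one and 38 (0.391%) in the deeper one, and both shares lay below the 0.524% and 0.582% of the KO hemispheres at the control depth. With all cells at 25 transcripts both control hemispheres, at 0.0628% and 0.149%, again lay below the KO hemispheres at 0.403% and 0.460%. In the striatal field the KO share at the control depth was 4.41% (3.94 to 4.91) beside 5.09% (4.57 to 5.66) in the control, and its hemispheres, at 4.09% and 4.72%, lay between those of the control, at 3.45% and 6.07%. At 25 transcripts the control was the higher one there, with 2.70% (2.27 to 3.19) against 1.78% in the KO section (1.54 to 2.04), and both of its hemispheres, at 2.64% and 2.73%, lay above those of the KO section, at 1.75% and 1.81%. The field held 3.41 direct-pathway-like cells per member in control and 6.46 in KO tissue as deposited, 5.27 in the KO section at the control depth, and 3.04 against 5.03 with all cells at 25 transcripts. The field was set by genes chosen as higher in direct-pathway-like cells, so these ratios depend on its limit and are a description. With the limit at 0.5% and 1% in place of 0.75% they were 3.41 and 3.28 in control and 5.09 and 7.11 in KO tissue as deposited. Since each section is 1 plane through 1 brain, how much of the germinal zone it passed through was not controlled.

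Without the rule, over all segmented cells of the field, *Drd2* stood at 6727 CPM in the control section against 7068 in the KO section, a log2 difference of 0.07 (-0.02 to 0.16). *Adora2a* was lower in the KO section, at 3057 against 4630 CPM (log2 -0.60, -0.72 to -0.48). *Penk* stood at 811 and 798 CPM there. On the direct side of the rule, *Rxrg* stood at 30450 CPM in the control field and 36841 in the KO field (log2 0.27, 0.23 to 0.32). *Tac1* stood at 433 and 1640 CPM and *Chrm4* at 3124 and 1595. The part of these differences in the member shares of the field, and in its direct-pathway-like cells per member, was not tested. The *Drd2* and *Adora2a* levels of the field thus did not move together between the sections, and the 2 receptors of the class are given apart wherever they are named.

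Between members of the *Top2a* zone and those of the field, 43 of 238 genes that neither the rule nor the zones had used (18.1%) were higher and 47 (19.7%) lower in the zone in both sections, and only 129 had a transcript in every group. Of the 7 progenitor and radial glia genes outside the zone rule, 4 were higher in both sections and 3 had no ratio in the control section. The genes named next are examples of both directions and were not chosen by a test. *Ccnd2*, a cyclin of dividing progenitors, stood at 83114 CPM in members of the zone and 21497 in members of the field in the KO section (log2 1.95), and at 120027 and 44011 in the control (1.45, 1.12 to 1.77). *Pou3f1*, a POU-domain transcription factor of the indirect-pathway list, was at 9601 and 1986 CPM in the KO section (2.27) and 15915 and 1176 in the control (3.76). *Sp9* was at 16443 and 6444 CPM in the KO section (1.35, 1.21 to 1.5) and at 21883 and 7304 in the control (1.58, 0.78 to 2.35). *Dlx1*, a homeobox gene of ganglionic eminence cells which was chosen after its values were seen, differed by 2.02 in the KO and 3.56 in the control section. All 4 genes were higher in the zone in both sections. This was not particular to the indirect-pathway list, of which 2 of the 3 genes with a ratio were higher in both sections. Of the direct-pathway list 2 of the 2 genes with a ratio, *Isl1* and *Ebf1*, were higher too. Of the 6 receptor genes with a ratio 5 were lower and 0 higher in the zone in both sections. These counts are over listed genes with a ratio. They are to be set beside 43 higher and 47 lower of the 129 genes with a ratio, not beside the shares of all 238. *Top2a* itself, which set the zone through the neighbours, was present in 60.4% of KO and 33.3% of control members there and in 8.48% and 2.46% of members in the field.

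Other genes were lower in members of the zone. *Grm3*, a metabotropic glutamate receptor gene, stood at 282 CPM in KO members of the zone and 12429 in those of the field, a log2 difference of -5.46, and at 663, from 1 transcript, and 28846 in the control (-5.44, -10.88 to -2.83). *Rgs4*, a regulator of G-protein signalling, differed by -3.28 in the KO section and by -4.30 (-9.80 to -1.62), on 1 transcript in the zone, in the control. *Cxcl14*, a chemokine gene, differed by -2.49 and by -2.61 (-5.90 to -0.50), the latter on 2 transcripts. Of the rule's own genes, given as a description, *Penk* was in 25.2% of KO members of the field and 7.95% of those of the zone, and in 10.5% of control members of the field and 0 of 45 of those of the zone (0 to 7.87). *Drd2* stood at -0.56 in the KO and 0.36 (-0.11 to 0.82) in the control section.

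Against the cells of the whole zone that were in neither class, members of the zone were higher for the striatal genes named here. Those other cells were not limited to neighbours of members or to cells with *Gad1* or *Gad2*. In the KO section *Meis2* stood at 175276 CPM in these members and 49793 in the other cells of the zone, *Bcl11b*, a transcription factor of striatal and deep cortical neurons, at 21362 and 3759, *Foxp1* at 15994 and 3179, and *Ebf1* at 12291 and 2675. In the control section the same order held, with *Meis2* at 144562 and 33017, *Bcl11b* at 28515 and 2589, *Foxp1* at 9947 and 1915, and *Ebf1* at 10610 and 1121. Since the members of a cell class differ from other cells by the choice of the class, this describes the cells and tests nothing.

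Members of the zone also stained differently. DAPI brightness per cell volume, a measure of DNA density, was 2.56 times (2.48 to 2.63) as high in members of the zone as in members of the field in the KO section and 3.14 times (2.86 to 3.56) in the control, and polyT brightness per volume, which reads polyadenylated RNA, 1.76 and 1.86 times. Tissue of the zone was brighter as a whole. Its members were brighter than its other cells too, by 1.45 times in DAPI per volume in the KO and 1.83 times in the control section. These other cells were again taken from the whole zone, so that position within it was not matched. The median volume of members of the zone was 823 µm³ in the KO section, against 983 in the field. In the field, members and direct-pathway-like cells did not differ in these stains beyond the intervals of the KO section, at ratios of 1.0 (0.976 to 1.03) for DAPI and 1.0 (0.983 to 1.02) for polyT.

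Levels in KO members, of which there were enough for bins of distance from the border, were also followed across it. From 250 to 500 µm inside the zone, through 100 to 250 µm and 0 to 100 µm, to the same distances inside the field in reverse order, *Gpr6*, a constitutively active receptor of indirect-pathway neurons, stood at 31.9, 169, 405, 600.2, 1139 and 1899 CPM, higher in each of these bins than in the one before it. The *Gpr6* levels rested on 2, 13, 13, 13, 57 and 146 transcripts, and the intervals of adjacent bins overlapped except between the last 2. *Penk*, which is in the rule, stood at 351, 767, 997, 2309, 2778 and 3786 CPM as a description. The rule sets *Penk*, *Drd2* and *Adora2a* against *Rxrg*, *Tac1* and *Chrm4*, and *Rxrg* was in 85.4% of KO members of the field and 22.0% of those of the zone. Over all segmented KO cells, without the rule, *Penk* was at 960.2 CPM in the zone and 798 in the field. Beyond 500 µm lay only 10 KO members of the zone and 12 of the field, and these are left out of the runs of values and of the plot.

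*Ccnd2* and *Dlx1* ran the other way, at 128142 and 12798 CPM from 250 to 500 µm inside the zone, 43572 and 4987 at the border on the zone side, 20270 and 2355 on the field side, and 21740 and 2095 from 250 to 500 µm inside the field. *Sp9* went from 19006 CPM at 250 to 500 µm inside the zone to 12498 and 7157 on the 2 sides of the border, and stood at 5796 and 6700 in the next bins of the field. Among the 6 bins within 500 µm *Rgs4* had its largest step at the border itself, from 1029 to 4756 CPM, as did *Cxcl14*, from 2213 to 5217 CPM, *Sp9* and *Penk*. The 10 zone members beyond 500 µm stood at 9709 CPM for *Sp9* and 3066 for *Rgs4*, and the 12 field members at 5068 and 13685. Each KO bin within 500 µm held 160 to 565 members. Members made up 1.93% of the cells from 250 to 500 µm inside the zone, 5.46% and 10.3% of the next bins and 6.13%, 6.67% and 11.6% of the bins of the field. In the control section these bins of the zone held 14, 21 and 10 members and no *Penk* transcript, and the median distance of members of the zone to the field was 180 µm, against 177 µm in the KO section.

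**Figure D3:**
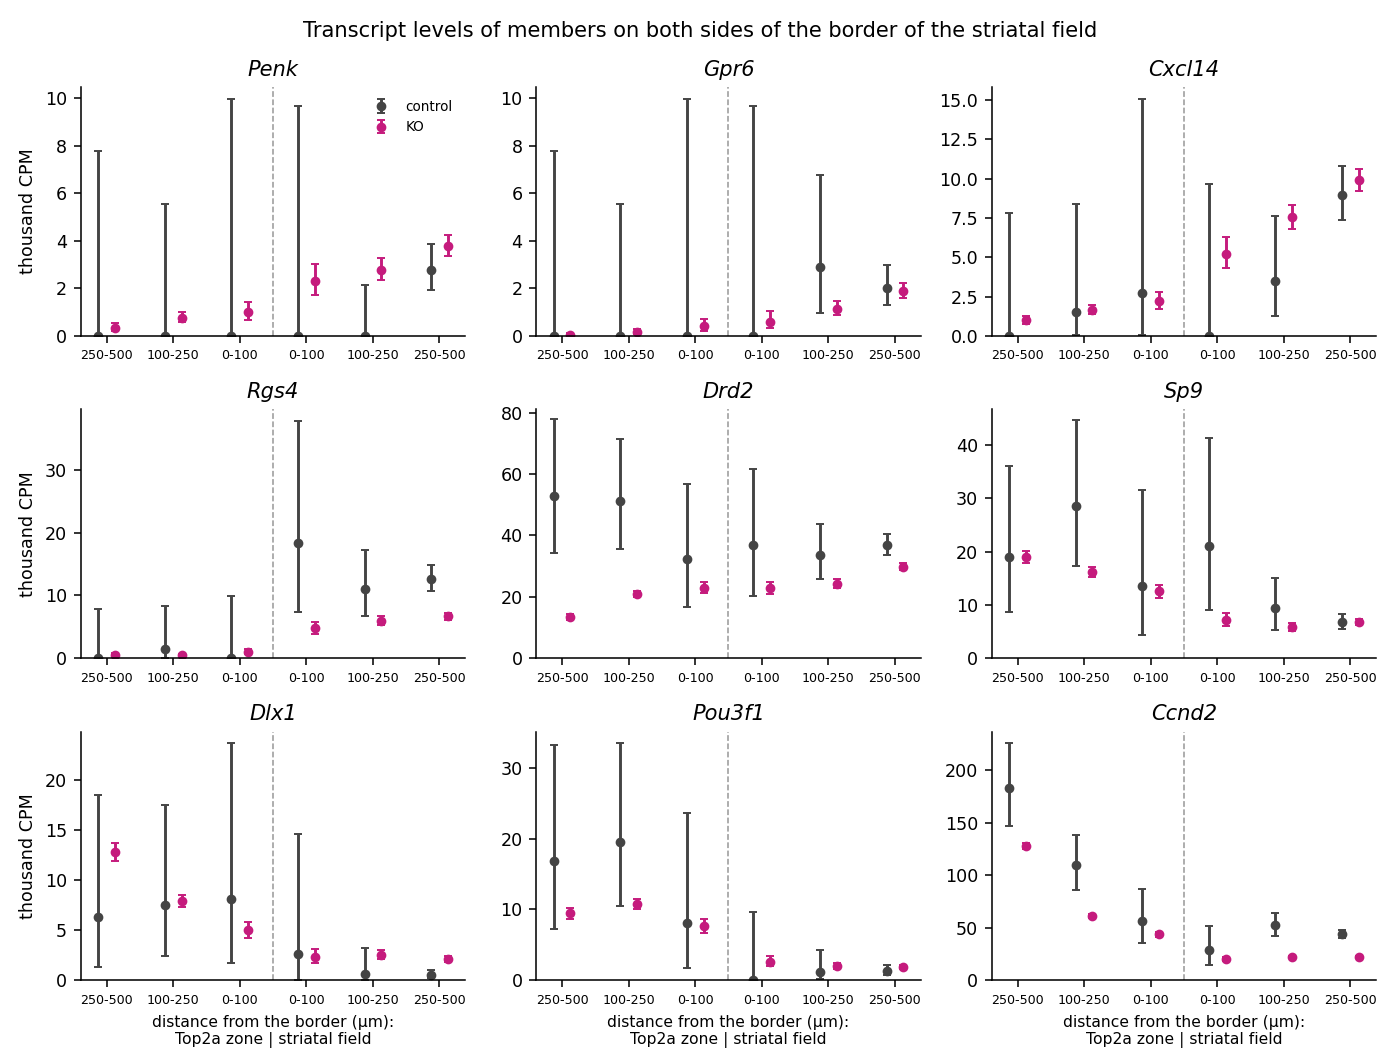
Levels of genes in members (CPM in units of 1000, y axis) by distance from the border of the striatal field in µm (x axis, *Top2a* zone on the left and field on the right) in both sections, with exact 95% Poisson intervals and without the members beyond 500 µm. In the KO section *Gpr6* goes from 31.9 CPM, on 2 transcripts, to 1899 CPM and *Ccnd2* from 128142 to 21740 CPM from 250 to 500 µm inside the zone to the same distance inside the field.

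Members elsewhere were a mixed group that fitted the label least. In the KO section *Meis2* stood at 52055 CPM and *Foxp1* at 7296 in the 1052 members elsewhere, against 113670 and 29788 in members of the field. Genes of other neurons were high in them, with *Tbr1* in 29.3% of cells and at 8897 CPM against 830 in the field, and the interneuron gene *Lhx6* at 6546 against 3806. Chosen after their values were seen, *Onecut2* stood at 11706 CPM against 897 and the guidance receptor gene *Nrp2* at 9111 against 1030. In the control section the 86 members elsewhere stood at 71322 CPM for *Meis2*, 5748 for *Tbr1* and 2768 for *Onecut2*. At 25 transcripts per cell 24 control and 66 KO members remained elsewhere, 0.0899% (0.0576 to 0.134) and 0.139% (0.107 to 0.177) of the cells there. Names of striatal neurons are therefore used below for the members of the field, and the values of all members are given beside them.

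Members stood near each other. Among the 10 nearest cells of a member 10.5% were members in control and 16.6% in KO tissue, against 6.24% and 8.79% around direct-pathway-like cells and 0.630% and 2.12% around other cells. In the *Top2a* zone of the KO section 24.0% of the neighbours of a member were members, and 2.24% were direct-pathway-like, against 12.7% and 55.4% in the field. The control section had the opposite order for members, with 4.89% around the 45 members of the zone and 12.5% in the field, and 0% and 22.6% for direct-pathway-like cells. These values by place are not matched in depth, and as deposited members were 2.84% of the zone's cells in the KO and 0.273% in the control section. With KO transcripts at the control depth, the share around all members was 7.74%, below the control value of 10.5%.

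The comparison of members with direct-pathway-like cells shows what went with the rule among the genes it had not used. These are genes of the same cells that the rule sorted, so that the values describe the classes without a test. A gene was counted when it was at least 2-fold higher or lower in both sections, over 243 genes at or above the panel's median level in members. Of these 14 (5.76%) were higher and 4 (1.65%) lower in members, and inside the field 10 (4.12%) were higher and 0 (0%) lower. The filter used the level in members alone, so that genes low in members but high in direct-pathway-like cells were left out. The balance of higher and lower counts is to be read with that limit. By any amount, 101 (41.6%) were higher and 79 (32.5%) lower in members in both sections, and 98 (40.3%) and 72 (29.6%) in the field, and the counts of listed genes below are to be read against these shares.

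The genes of the indirect-pathway list outside the rule were higher in members of the field. Of 7 listed genes 5 were on the panel, and in the field all 5 were higher in members in both sections, 3 of them at least 2-fold, with log2 medians of 1.22 and 1.26. Over all members 4 of the 5 were higher in both sections, 2 of them at least 2-fold. Their medians there were 1.20 and 1.25, beside 0.08 and 0.04 over all 243 genes. *Sp9* stood at 7304 CPM in members and 2826 in direct-pathway-like cells of the field in the control section (log2 1.37, 0.87 to 1.87) and at 6444 and 2524 in the KO section (1.35, 1.21 to 1.5). *Ptprm*, an adhesion phosphatase gene, stood at 36955 and 15820 CPM in the control (1.22, 1.01 to 1.44) and 25662 and 7615 in the KO section (1.75, 1.68 to 1.83). *Gpr6* stood at 2043 and 459 CPM in the control (2.15, 1.05 to 3.27) and 1448 and 603 in the KO section (1.26, 0.95 to 1.57). Over all members of the KO section *Gpr6* differed by only 0.16. *Pou3f1* and *Gpr52* were less than 2-fold higher in the field.

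The genes of the direct-pathway list were lower in members. All 4 on the panel, of 5 listed, were lower in both sections, over all members (medians -1.06 and -1.60) as well as in the field (-0.86 and -1.11). Among them *Drd1* and *Pdyn* had set the field and were chosen as higher in direct-pathway-like cells. Their direction was thus fixed by that choice, and only *Isl1* and *Ebf1* are free of it. In the field *Ebf1* stood at 6190 CPM in members and 12186 in direct-pathway-like cells of the control section (-0.98, -1.38 to -0.58) and at 9334 and 20604 in the KO section (-1.14, -1.24 to -1.05). *Drd1* differed by -0.72 and -1.08, *Pdyn* by -0.75 and -1.41 and *Isl1* by -1.12 and -0.63. None of the 4 was 2-fold lower in both sections in the field, where *Drd1* was still at 4147 and 3082 CPM in members, while over all members *Drd1*, *Pdyn* and *Ebf1* passed 2-fold in both.

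**Figure D4:**
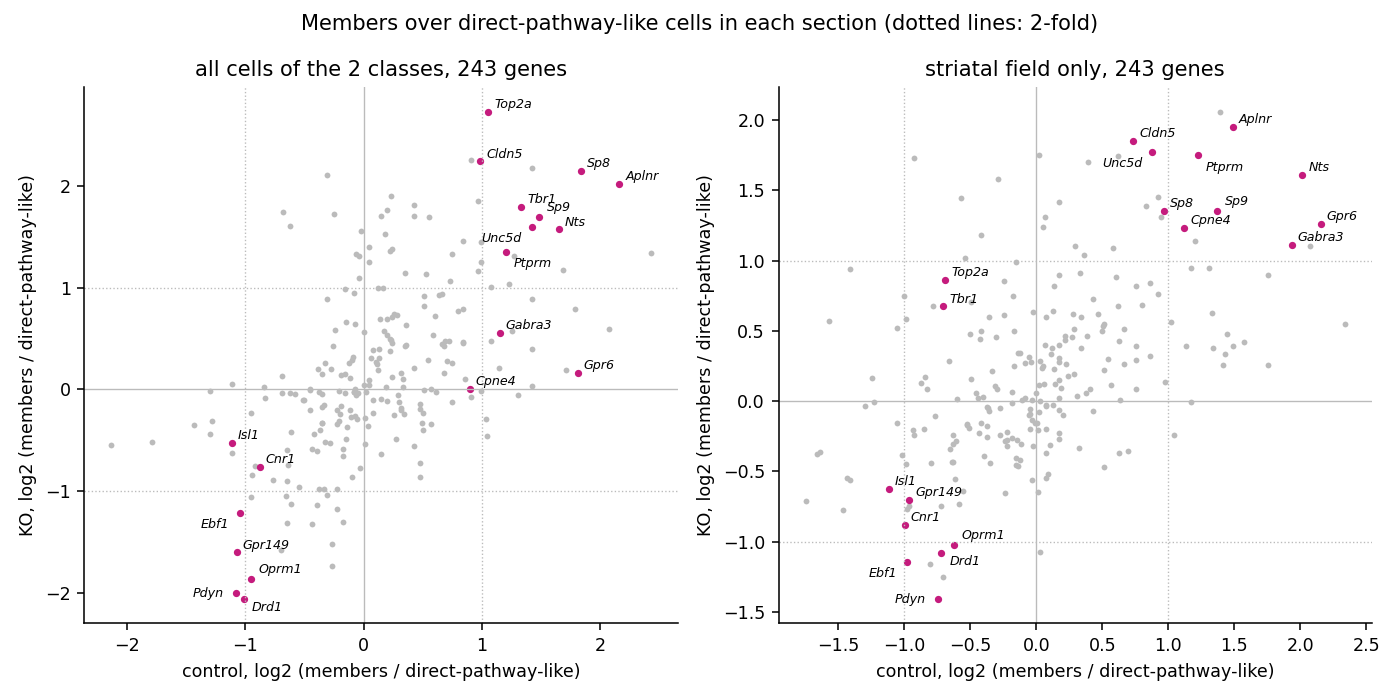
Log2 ratio of members over direct-pathway-like cells in the control section (x axis) and the KO section (y axis), 1 point per gene, for all members and for the cells of the striatal field, with dotted lines at 2-fold. In the field *Gpr6* (2.15 and 1.26), *Ptprm* (1.22 and 1.75) and *Sp9* (1.37 and 1.35) lie past 2-fold on the upper right, and *Ebf1* (-0.98 and -1.14) and *Pdyn* (-0.75 and -1.41) are past 2-fold lower in the KO section alone.

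Genes that striatal neurons share did not separate the classes by 2-fold in both sections of the field. Of the 6 genes of the general striatal list used here, all were lower in members of the field in both sections, with medians of -0.42 and -0.50. The direction of *Gpr149* and *Oprm1* among them was fixed in advance, since they had set the field as genes higher in direct-pathway-like cells. *Meis2* differed by -0.05 (-0.16 to 0.06) in control and -0.09 (-0.12 to -0.06) in KO tissue, *Foxp1* by -0.12 and -0.30, and *Bcl11b* by -0.22 and -0.28. *Oprm1*, the mu-opioid receptor gene that marks the striosome compartment, was lower in members, by -0.62 (-1.40 to 0.11) and -1.02 (-1.23 to -0.82).

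On the panel outside the rule were 13 receptor genes for dopamine, adenosine, acetylcholine, opioids and cannabinoids. In members of the field 2 were higher and 7 lower in both sections, and 3 had no transcript in control members there. *Drd1* and *Oprm1* are among the 7, and their direction was fixed in advance, since they had set the field. Of all 243 genes 40.3% were higher and 29.6% lower there in both sections. *Cnr1*, the cannabinoid receptor gene, stood at 6004 CPM in members and 12003 in direct-pathway-like cells of the control field (-1.0, -1.41 to -0.60) and at 9227 and 17027 in the KO field (-0.88, -0.98 to -0.79). *Oprd1*, the delta-opioid receptor gene, whose product binds the peptides made from Penk, was higher in members by 1.34 (-1.09 to 3.67) on 6 control transcripts and by 1.12 (0.62 to 1.61) in the KO section. The muscarinic receptor gene *Chrm3* was higher by 2.08 (-0.90 to 5.17) on 5 control transcripts and by 1.11 (0.39 to 1.80) in the KO section. *Chrm1*, of the same family, differed by -0.04 and 0.28. *Adora1* differed by -0.63 and -0.43, with an interval in the control section that held 0. *Drd5* and *Oprk1* had no transcript in the 456 control members.

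The genes with the largest ratios over all members were not all striatal. By the smaller ratio of both sections the 8 highest were *Aplnr* (2.16 in control and 2.01 in KO tissue), *Sp8* (1.84 and 2.14), *Nts* (1.65 and 1.57), *Sp9* (1.48 and 1.69), *Prdm8* (1.42 and 2.18), *Unc5d* (1.42 and 1.60), *Slc17a7* (2.42 and 1.34) and *Tbr1* (1.33 and 1.79). *Aplnr* is an endothelial receptor gene, and without the members that had *Adora2a* and no *Drd2* its ratio was 1.34 in control and 0.08 in KO tissue. *Slc17a7* and *Tbr1* belong to glutamatergic neurons, and in the field *Tbr1* was at -0.71 and 0.67. Of the 14 genes past 2-fold, 4 rested on 10 or fewer transcripts in control members, among them *Prdm8* on 2. Counting intervals left out 0 in both sections for 6 of these 14 genes and for all 4 lower ones. In the field they did so for 5 of the 10 higher genes.

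*Nts*, *Ptprm* and *Sp9* were past 2-fold in both sections in all members, in the field, without the members that lacked *Drd2*, and in the field without them. These are overlapping choices of the same cells, so that passing all of them is no independent support. Intervals left out 0 in both sections for *Ptprm* and *Sp9* in each choice, and for *Nts* in no choice. *Nts*, which codes for the peptide neurotensin, rested on 7 transcripts in control members and 254 in KO members. The 8 lowest genes were *Pdyn*, *Gpr149*, *Ebf1*, *Drd1*, *Oprm1*, *Dgkk*, *Cxcr4* and *Ptprt*, at -0.77 to -1.08 in control and -0.84 to -2.06 in KO tissue. Of the genes of the field chosen after their values were seen, *Cpne4* was higher in members by 1.12 (0.57 to 1.67) and 1.23 (1.11 to 1.35) and the GABA receptor subunit gene *Gabra3* by 1.93 (0.43 to 3.45) and 1.11 (0.73 to 1.48).

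Markers of other cells were counted in the same way, beside the 41.6% of all genes that were higher in members and the 40.3% in the field. The 6 glutamatergic genes were higher in members than in direct-pathway-like cells in both sections, with sums of 3399 CPM against 1617 in control and 7887 against 2581 in KO tissue, and in members of the field their sums were 1609 and 2438, with 4 of the 6 higher than in direct-pathway-like cells of the field in both sections (medians 0.36 and 0.49). The 8 vascular genes summed to 4741 against 2818 in control and 12945 against 3253 in KO tissue, and to 4333 and 10742 in members of the field, where 6 of the 8 were higher in both sections (medians 0.39 and 1.66). The 3 microglial genes summed to 1521 and 685 CPM in members, below the 3252 and 2513 of the other cells, and 2 of the 3 were higher than in direct-pathway-like cells of the field (medians 0.70 and 0.33). Of the 3 cholinergic genes on the panel 2 were higher there in both sections (0.67 and 1.41) and *Slc5a7* had no transcript in control members. The 6 genes of interneurons from the medial ganglionic eminence summed to 9839 and 13381 CPM in members, against 9421 and 12518 in direct-pathway-like cells, and 3 of the 6 were higher in members of the field in both sections (medians 0.11 and 0.51). The 8 progenitor and radial glia genes, which include *Top2a* and *Ccnd2*, summed to 60823 CPM in control and 58610 in KO members, against 51655 and 27502 in direct-pathway-like cells, with 5 higher and 0 lower in both sections over all members. In the field 3 were higher and 2 lower in both sections, and the medians had opposite signs (-0.18 and 0.42). The part of these cells in the ratios above was not tested.

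Between the genotypes, members of the KO section differed from those of the control section in many genes as deposited, and in fewer once place and depth were matched. Of 243 genes 55 (22.6%) were at least 2-fold higher and 27 (11.1%) at least 2-fold lower in KO members, and in direct-pathway-like cells 23 (9.47%) and 7 (2.88%). The filter on low genes used the mean level of members over both sections, so that genes low in 1 section passed it through the other. Of the 55 genes 20 were below 366 CPM in control members, and of the 27 genes 6 were below it in KO members. With a filter on the level in the cells of neither class, 64 of 242 genes were higher and 17 lower. In members of the field the counts were 47 (19.3%) and 19 (7.82%). When the KO section was in addition thinned to the control depth, which left 316 KO members of the field with a median of 49 transcripts beside 325 control members with 46, they were 30 (12.3%) and 24 (9.88%), and in direct-pathway-like cells of the field 13 (5.35%) and 23 (9.47%). Members were the smaller class, so that more of their ratios rest on few transcripts. Counting intervals left out 0 for 9 of the 30 and 5 of the 24 genes in members of the matched field, and for 12 of the 13 and 18 of the 23 in direct-pathway-like cells there.

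The receptors themselves, which the rule used, are given as a description. *Drd2* was at 35778 CPM in control and 18187 in KO members, a log2 difference of -0.98, which was -0.43 in the field and 0.09 (-0.14 to 0.32) in the matched field. *Adora2a* was lower in the KO section throughout, by -1.66 over all members and -0.61 (-0.91 to -0.31) in the matched field, where it stood at 28103 CPM in the control section against 18421 in the KO section. *Penk* stood at 2600 and 3660 CPM there, a difference of 0.49 (-0.33 to 1.33) on 42 and 61 transcripts.

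Between the sections, over all members, the 5 highest genes were *Prdm8* (3.06, from 2 control transcripts), *Epha3* (2.91), *Pdgfrb* (2.59), *Top2a* (2.49) and *Onecut2* (2.32). *Prdm8*, at 89.4 CPM in control members, and *Pdgfrb*, at 134 CPM, passed the filter only through the KO section. In the field as deposited they stood at 1.07, 2.14, 1.75, 1.65 and 0.69, with intervals that left out 0 for *Epha3* and *Top2a*. In the matched field *Prdm8* stood at 0.54, *Top2a* at 0.87 and *Onecut2* at 0.37, each with an interval that held 0, *Epha3* at 0.96 on 3 and 6 transcripts, and *Pdgfrb* at 1.54 (-1.14 to 4.74) on 3 and 9, past 2-fold in all 4 settings compared below. *Igf2*, *Pdgfrb*, *Onecut2*, *Abcc9* and *Top2a* exceeded their ratio in direct-pathway-like cells the most. *Igf2* was 1.77 higher in KO members and -0.66 in direct-pathway-like cells, and in members of the field it was at 1.84 (1.04 to 2.74) as deposited and 0.39 (-0.95 to 1.76) with depth matched. With all cells at 25 transcripts the *Igf2* ratio over all members turned to -1.35. The 8 vascular genes had a median of 1.43 over all members with 7 at least 2-fold higher, of 1.53 with 7 higher and 1 lower in the field as deposited, and of -0.28 with 1 higher and 2 lower in the matched field.

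The 5 lowest genes were *Nr4a1* (-2.0), *Junb* (-1.87), *Gpr149* (-1.84), *Htr1b* (-1.84) and *Grm3* (-1.84). *Nr4a1* and *Junb* are activity-dependent early genes. In the matched field *Nr4a1* stood at 3652 CPM in the control section against 1920 in the KO section (-0.93, -1.84 to -0.04) and *Junb* at 6128 and 2940 (-1.06, -1.78 to -0.36), and in direct-pathway-like cells at -0.29 (-0.92 to 0.34) and -0.48 (-0.93 to -0.03). *Grm3* stood at -0.64 (-0.94 to -0.35) in members of the matched field and -0.31 (-0.45 to -0.17) in direct-pathway-like cells there. *Gpr149* was lower in both classes, at -0.75 (-1.99 to 0.45) and -1.36 (-1.82 to -0.91). It was among the genes that had set the field, so that its values there depend on that choice and are a description. *Htr1b*, a serotonin receptor gene, stood at -0.89 (-2.61 to 0.74) and -0.32 (-0.98 to 0.34), and over all members its ratio went up to 0.26 over the 4 pairings of hemispheres. The difference between the classes was not tested, and the intervals overlap for all 5 genes.

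*Gpr6*, *Ednrb*, *Cxcl14*, *Chrm3* and *Rgs4* fell furthest below their ratio in direct-pathway-like cells over all members. *Gpr6* was at -1.36 in members and 0.29 in direct-pathway-like cells, but at 0.04 (-0.97 to 1.05) in members of the matched field. *Rgs4* was at -1.57 and -0.11, and at -0.37 (-0.80 to 0.05) in the matched field. Both genes were low in members outside the field, of which the KO section had the larger share, and the part of this in the ratios over all members was not tested.

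A set of 17 genes was at least 2-fold higher and 4 were at least 2-fold lower in KO members in each of 4 settings, namely all members and members of the field, as deposited and at the control depth, or 7% and 1.65% of the 243 genes. The 4 settings share control cells and overlap in KO cells, so that passing all of them is no independent support. The set also went through the filter on both sections, which *Pdgfrb*, 1 of the 17, passed only through the KO section. In the matched field counting intervals left out 0 for 9 of the 30 higher genes. They held 0 for *Pdgfrb*, *Dlx1* and *Foxp2* of the 17. Of the 17 genes 7 were also past 2-fold in the same direction in direct-pathway-like cells of the field, and 2 of the 4, beside 12 (4.94%) and 9 (3.7%) of all genes. Among the 10 others was *Isl1*, at 2414 CPM in control and 5040 in KO members of the matched field (1.06, 0.28 to 1.86), on 39 and 84 transcripts, and at 0.43 (0.15 to 0.71) in direct-pathway-like cells. *Dlx1* was at 1.22 (-0.30 to 2.85) and 0.08 (-0.53 to 0.71). *Foxp2*, a striatal transcription factor gene, was higher in both classes, at 1.46 (-0.44 to 3.58) and 1.74 (1.10 to 2.41). The 4 lower genes included *Junb*, given above, and *Olig1*. *Foxp1*, *Ccnd2* and *Ptprm* belong to neither set and are given for the matched field only. *Foxp1* was higher by 0.70 (0.41 to 0.98) in members and 0.63 (0.50 to 0.77) in direct-pathway-like cells. *Ccnd2* was lower in both, at -1.30 (-1.58 to -1.03) and -1.08 (-1.21 to -0.96), and so was *Ptprm*, at -1.01 (-1.30 to -0.73) and -0.96 (-1.16 to -0.76).

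**Figure D5:**
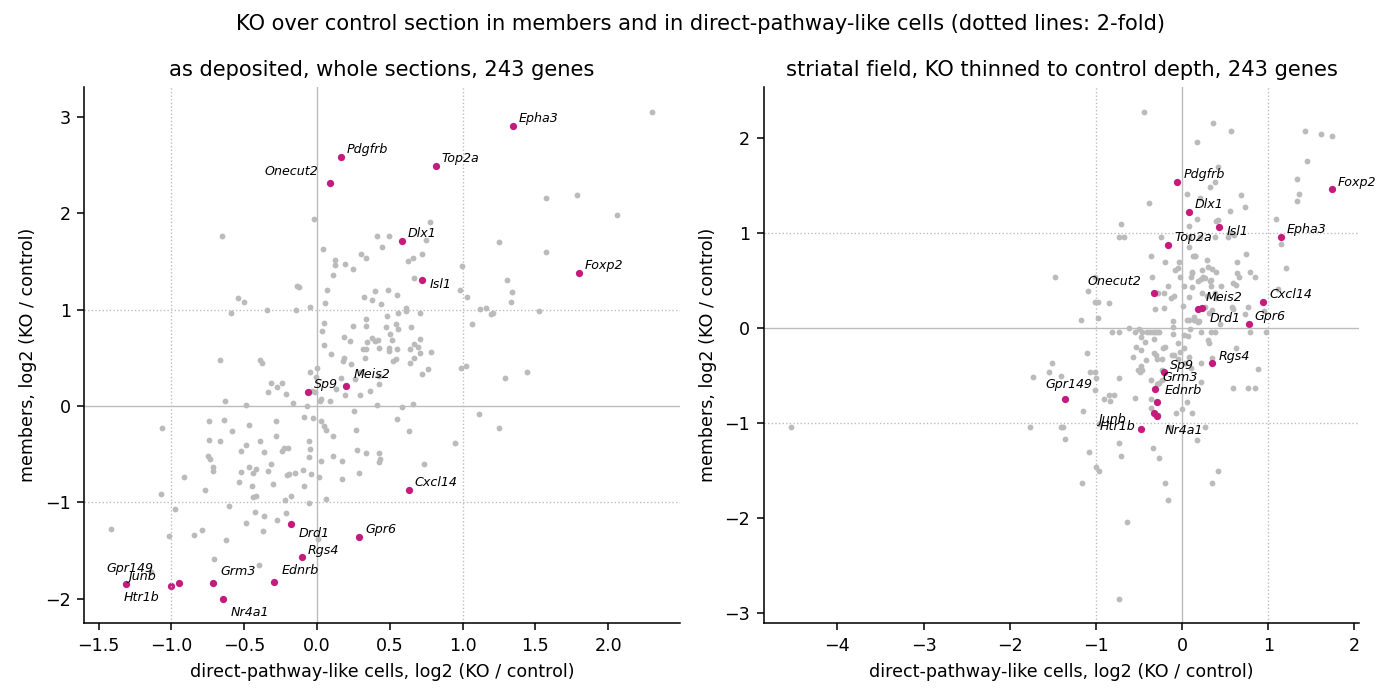
Log2 ratio of the KO over the control section in direct-pathway-like cells (x axis) and in members (y axis), 1 point per gene, as deposited and for the striatal field with KO transcripts thinned to the control depth, with dotted lines at 2-fold. *Epha3* and *Pdgfrb* lie at 2.91 and 2.59 in members as deposited and at 0.96 and 1.54 in the matched field, and *Nr4a1* at -2.0 and -0.93.

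*Sst*, the gene whose promoter drives Cre, was found at low level in members. At least 1 *Sst* transcript was present in 32 of 456 control members (7.02%, 4.85 to 9.76) and 312 of 3167 KO members (9.85%, 8.84 to 10.9), and at least 2 in 0.877% and 3.76%. Direct-pathway-like cells gave 4.45% and 10.6%. As a background for free RNA, cells with at least 3 transcripts of the microglial genes, which should lack *Sst*, gave 0.837% and 2.52% at median depths of 52 and 154. With every cell at 25 transcripts, members gave 4.11% and 2.12%, direct-pathway-like cells 2.33% and 2.56%, *Lhx6* cells with *Gad1* or *Gad2* 6.56% and 4.86%, and microglial-gene cells 0.152% and 0.232%. By place, *Sst* was present in 17.4% of control and 17.9% of KO members elsewhere, in 5.23% and 10.8% of those of the field, and in 0 of 45 (0 to 7.87) and 1.94% of those of the *Top2a* zone. As deposited, the KO share in the *Top2a* zone lay below the 2.52% of the microglial-gene cells. At 25 transcripts it lay above theirs, at 0.340% (0.0928 to 0.869) against 0.232% (0.0631 to 0.592), with intervals that overlap. As deposited, at least 2 *Sst* transcripts were in 0.507% of KO members of the zone and in 0 of 1743 microglial-gene cells (0 to 0.211). How much of the *Sst* in members is free RNA was not tested. Whether Cre had acted in any member was not measured here, since neither the recombined allele nor tdTomato was read.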

How the data were processed

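One MERFISH section of each genotype was used. The authors decoded the images, segmented the cells and counted molecules on the MERSCOPE instrument (Vizgen) with its Pan Neuro panel of 500 genes, and the deposited tables hold counts per cell and gene, cell volumes and positions, and the stain intensity of polyT and DAPI per cell as deposited, not normalized between sections. The version of the instrument software, the segmentation model and its filters are not given in the sources used here. Columns of 50 barcodes that code for no gene were left out of totals. The study's own cell clusters, made later in Seurat, were not used. Some genes of the panel are not reported here.

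Members, direct-pathway-like cells and lists were chosen with earlier results of these data known. Counts were summed over the cells of a class and divided by their panel total (CPM). With 1 section per group no test was run. A gene was counted past 2-fold among 243 genes at or above the median CPM of the panel in members (366 CPM), with the 10 genes of the rule left out. Log2 ratios have bounds from opposite ends of both exact 95% intervals. Thinning drew molecules at random with a fixed seed. Zones came from the 100 nearest cells, hemispheres from 2-means clustering of direct-pathway-like positions, and intervals of medians from order statistics. No doublet caller was run, and the 1% of cells with the largest volume were left out as an alternative. Named genes were those of the rule, the marker lists and the receptor families, the 8 highest and 8 lowest over direct-pathway-like cells in both sections, and the 5 highest and 5 lowest between sections, in themselves and relative to direct-pathway-like cells. Alternatives changed the minimum of transcripts, the depth, the receptor minimum, the filter, the fold and the hemisphere. On simulated counts for KO over control in members, with 259 genes in that step, the 2-fold count found 98.2% of 57 genes changed 4-fold, 96.3% of 54 changed 3-fold and 3.38% of 148 unchanged genes. The simulation held counting error only, at the full totals of members, and took the known shift in total out of each ratio. Its percentages therefore do not give the error of the counts between sections or in the matched field. Gene positions are from GENCODE on GRCm39. Python 3.11.15, numpy 2.4.6, scipy 1.17.1, pandas 2.3.3 and matplotlib 3.10.9 were used.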

Additional observations from a re-analysis of the deposited data

How the results depend on the processing

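With 1 section of each genotype, intervals cover counting error only and depth, run, plane and genotype cannot be told apart. Exactly the minimum of 2 receptor transcripts was held by 51.8% of control and 36.6% of KO members. No paired analysis was possible because each group has 1 section. Settings of the striatal field, of the filter on other cells, of members without *Drd2* and of the zone limits were chosen after seeing the data.

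The log2 difference in the share of members (1.92) was 2.38 and 1.34 with minimums of 10 and 50 transcripts, 0.084 with KO transcripts at the control depth, 0.17 with all cells at 25 transcripts, 2.32 and 1.49 with *Drd2* and *Adora2a* at least 3 and at least 1, 1.53 to 2.70 over 4 hemisphere pairings, 0.68 in the field and -0.21, a reversal with overlapping intervals of the shares, in the field at the control depth. The cause of the reversal was not tested. The genes past 2-fold between sections (82) were 43 at the control depth with the filter on low genes set anew, 46 there with the same 243 genes, 43 with a receptor minimum of 1, 150 with no filter on low genes, 149 at 1.5-fold and 54 in the field at the control depth. Those past 2-fold between classes (18) were 50 with a receptor minimum of 1, 28 with no filter, 49 at 1.5-fold, 9 without members that lacked *Drd2*, 10 in the field and 9 in the field at the control depth.

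Members among the 10 nearest cells of a member (10.5% for the control, 16.6% for the KO) were 8.98% and 16.1% at a minimum of 10, 18.5% and 18.2% at 50, 4.83% and 3.72% at 25 transcripts per cell, 7.41% and 12.9% with a receptor minimum of 3, 11.8% and 23.0% with 1, 5.87% to 12.0% and 15.3% to 17.6% over hemispheres, 12.6% and 12.9% in the field, and, for the KO section at the control depth, 7.74% in all and 8.26% in the field, beside 12.6% in the control field. The volume ratio in the KO section (0.971) was 0.804 at 25 transcripts and 0.924 with a receptor minimum of 1. *Sst* shares (7.02% and 9.85%) were 0.877% and 3.76% for at least 2 transcripts and 4.11% and 2.12% at 25 transcripts.

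Of 619 recomputed values of 49 named ratios, 471 moved by less than their counting interval, 140 by more, and 8 turned their sign. These were *Gpr6* (0.24) and *Igf2* (-1.35) between sections at 25 transcripts, *Gpr6* (0.040) in the field at the control depth, *Htr1b* (0.26) in the highest hemisphere pairing, *Slc17a7* (-0.14) and *Unc5d* (-0.43) over direct-pathway-like cells in the KO field at the control depth, and *Tbr1* over direct-pathway-like cells in the control field (-0.71, in both field settings). The cause was not tested.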
